A study of Mus musculus with 10 samples.

Results

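The endoplasmic reticulum (ER) is where secreted and membrane proteins enter the secretory route, fold, and are checked before they leave for the Golgi. Chaperones such as BiP (Hspa5) bind unfolded chains there, and protein disulfide isomerases form their disulfide bonds. When unfolded protein builds up, the sensors IRE1 (Ern1), PERK (Eif2ak3) and ATF6 start the unfolded protein response, which raises transcription of chaperones and of genes that degrade misfolded protein. Folded cargo leaves in COPII-coated vesicles, and KDEL receptors return escaped chaperones from the Golgi. Osteoblasts and chondrocytes depend on this route because they secrete large amounts of procollagen.

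The genes described here are 41 named members of that route, chosen by symbol. Of these, 39 had a probe set annotated to exactly 1 symbol among the 19938 genes tested: 16 chaperones and folding enzymes, 12 stress sensors, regulators and degradation genes, and 11 genes of translocation and ER-to-Golgi transport. Every probe set annotated to Sec61g also carried other symbols, and no probe set carried Kdelr2 alone, so these 2 members have no value. Where a gene had several probe sets, the one with the highest mean over the 10 arrays was used.

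RNA came from sorted osteoblastic lineage cells (OBCs) of 5 control and 5 BA mice, 1 mouse per Affymetrix Gene ST 1.0 array, all on the C57BL/6 strain. BA mice are Scl-tTA::TRE-BCR/ABL: a transactivator under the Scl promoter, which is active in blood stem and progenitor cells, switches on BCR/ABL once doxycycline is gone. The sort used antibodies to CD51, CD45, CD31 and Sca-1 and to antigens of mature blood cells. Both groups came off doxycycline at 5 weeks of age and were sampled 5 to 6 weeks later; the labels call the other group control and give no genotype for it. From each mouse 500 to 2300 sorted cells gave the RNA, which was amplified, so the arrays measure relative level per array and not RNA per cell.

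Markers and the whole-table comparison set the scale for what follows. The 10 chondrocyte markers averaged 10.2 to 10.9 (log2, mean over the list) on control arrays and 10.5 to 10.97 on BA arrays. The 7 osteoblast markers with a value averaged 9.43 to 10.2 and 8.97 to 9.87, so both kinds of skeletal RNA were present. Of these 7, 3 were lower in BA cells at an unadjusted p under 0.05, Col1a1 and Col1a2 among them. The 12 B and plasma cell markers, which matter here because plasma cells are rich in ER, averaged 5.62 to 6.03 and 5.73 to 5.94, and their groups overlapped. The 10 pan-haematopoietic markers averaged 5.76 to 6.98 on control arrays, 6.26 to 6.85 on BA replicates 1 to 4 and 8.70 on BA replicate 5. The differences in marker level were not limited to that array. All 8 stromal progenitor markers, among them Adipoq (-2.13), Lepr (-1.99) and Cxcl12 (-1.60), were lower in BA cells (median -1.08, 4 at an unadjusted p under 0.05), and the list averaged 7.55 to 9.66 on control and 6.54 to 8.14 on BA arrays. All 12 neutrophil markers were higher (median 0.97, 2 at such a p), with list means of 6.34 to 8.38 and 7.11 to 9.85, or up to 8.67 without BA replicate 5. The 5 erythroid markers with a value were lower (median -0.39, 1 at such a p), with list means of 6.18 to 7.07 and 6.01 to 6.24. No marker of these lists passed over all genes, their list means overlapped between groups, and their part in the results below was not tested, apart from the fit with the pan-haematopoietic covariate. Xist, an RNA of female cells, read 9.81 to 10.70 on control replicates 4 and 5 and BA replicates 2, 4 and 5. On the other arrays it read 3.85 to 5.08, so each group mixed both sexes by this RNA, and it is the Xist covariate below. Itgav, which encodes the sort antigen CD51, differed by 0.77 ± 0.19 (SE; adjusted p = 0.384, limma) with groups overlapping. Over all genes, 9.4% were at an unadjusted p under 0.05. Of 19938 genes, 1 (0.00502%) passed an adjusted p of 0.05 in limma, the small nucleolar RNA gene Snord38a, which is not a member; without BA replicate 4, 12 genes passed higher and 1 lower. The median difference, BA minus control, was -0.06 over all genes and 0.10 over the genes whose mean lay in the top 25% of the table, where 34 of the 39 members lay. The members are therefore set beside both medians.

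Some members carry a known control sequence of the unfolded protein response near their start. Promoter windows of 300 bases (250 before the start and 50 after) from the RefSeq table, build GRCm38.p6, were found for 35 of the 41 members. The ER stress element, bound by ATF6 together with NF-Y, was searched as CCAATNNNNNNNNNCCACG on both strands. It was present for 8 of the 35 members (22.9%) and for 37 of all 27025 genes with a window (0.137%). The members are shown because their transcripts would be read first for a stress response; each is printed on the strand that reads CCAAT first, and the capitals mark the CCAAT and CCACG boxes.
Hspa5: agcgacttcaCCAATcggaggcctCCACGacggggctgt
Hsp90b1, distal: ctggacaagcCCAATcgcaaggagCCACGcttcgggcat
Hsp90b1, proximal: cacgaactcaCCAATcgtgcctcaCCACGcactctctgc
Calr: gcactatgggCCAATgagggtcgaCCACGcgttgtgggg
Canx: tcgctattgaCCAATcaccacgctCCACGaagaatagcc
Pdia6: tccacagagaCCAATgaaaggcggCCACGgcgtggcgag
Dnajc3: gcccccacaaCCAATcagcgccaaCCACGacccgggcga
Creld2: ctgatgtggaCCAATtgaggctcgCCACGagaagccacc
Syvn1: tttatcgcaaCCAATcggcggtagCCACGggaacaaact

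These stretches lie at chr2:34772015-34772053 (plus strand) for Hspa5, chr10:86705628-86705666 (minus) and chr10:86705523-86705561 (plus) for Hsp90b1, and chr8:84847065-84847103 (plus) for Calr. Those of Canx, Pdia6 and Dnajc3 lie at chr11:50325790-50325828 (minus), chr12:17266481-17266519 (plus) and chr14:118937817-118937855 (plus). Those of Creld2 and Syvn1 lie at chr15:88819510-88819548 (minus) and chr19:6046522-6046560 (plus). All are upstream of the annotated start, in the proximal promoter, with the first motif base between 44 bases (Syvn1) and 212 bases (distal copy of Hsp90b1) before it.

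The related ER stress element II, ATTGGNCCACG on either strand, was found for Herpud1 and Dnajb11, 2 of 35 members (5.71%), against 0.0444% of all genes. It shares the CCACG box with the first element, and CCACG alone was in 35.5% of all windows. The Herpud1 copy begins 52 bases before the start, at chr8:94386367-94386397 (plus strand), with capitals marking its boxes.
Herpud1: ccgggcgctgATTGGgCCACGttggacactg

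The amino acid response element, which ATF4 binds with C/EBP proteins, was searched as TGATGNAA on both strands and was found for Trib3, Herpud1 and Kdelr1 (8.57% of members with a window, 4.51% of all genes). A match is a description of the letters in these windows and was not tested as a binding site.

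Among the 8 members with an ER stress element, differences between BA and control cells ran from -0.31 (Calr) to 0.26 (Creld2), with a median of 0.09. None was at an unadjusted p under 0.05 (lowest adjusted p = 0.546, limma). Hspa5, the chaperone BiP and a standard readout of ER stress, averaged 11.51 ± 0.16 in control and 11.51 ± 0.12 in BA cells (SD, n = 5 each). Its difference was 0.00 with a 95% interval of -0.23 to 0.23, on the log2 scale. Hsp90b1, the ER form of HSP90, averaged 12.20 ± 0.08 and 12.16 ± 0.06, with an interval of the difference of -0.21 to 0.14. For these transcripts the intervals bound a change in array level closely, in either direction. Both ranked near the top of all genes (percentiles 99.6 and 99.9 in control cells), and how well the arrays resolve differences there was not tested. The whole table held 21 tested genes with the element, and these include the 8 members. None of the 21 was at an unadjusted p under 0.05, and their median difference was -0.04. Of the 19938 genes tested, 9.4% had such a p.

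The other chaperones also differed little between groups. Over the 16 chaperones, 10 were higher and 5 lower in BA cells, and Hspa5 was level, with a median of 0.07. That median was 0.17 without control replicate 2, 0.11 without BA replicate 4 and 0.008, 0.03 and 0.03 without control replicate 3, control replicate 5 and BA replicate 1. It was 0.008 with quantile normalization, 0.05 with array weights and 0.11 with the Xist covariate. None of the 16 was at an unadjusted p under 0.05, against 4.13% of all genes higher and 5.27% lower. Every chaperone's groups of arrays overlapped. Differences ran from -0.31 to 0.26, and the widest 95% interval reached 0.66 to each side of the estimate (Pdia4).

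**Figure D1:**
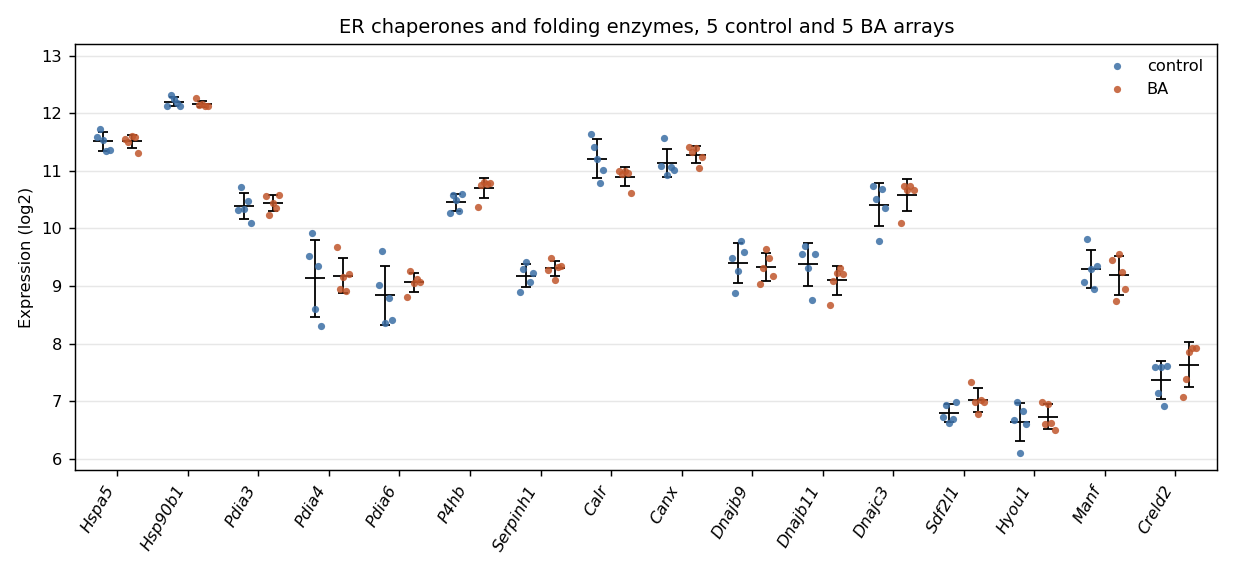
Expression (log2, vertical axis) of the 16 chaperones and folding enzymes on 5 control (blue) and 5 BA (orange) arrays; each point is 1 mouse, and black bars give the mean and SD of a group. For every gene the points of the groups overlap, and Hsp90b1 has the smallest SD in either group.

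P4hb, the disulfide isomerase that is also the beta subunit of collagen prolyl 4-hydroxylase, had the smallest p of the chaperones. It read 10.27, 10.58, 10.49, 10.31 and 10.60 on control arrays 1 to 5 and 10.38, 10.75, 10.81, 10.77 and 10.79 on BA arrays 1 to 5. All BA arrays but replicate 1 lay above all control arrays. The difference was 0.25 ± 0.12 (SE; adjusted p = 0.533, limma), larger than the SD of either group (0.15 and 0.18).

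Sdf2l1, a cofactor of BiP that unfolded protein induces, read 6.72, 6.93, 6.63, 6.69 and 6.98 in control and 7.34, 6.98, 6.78, 7.03 and 6.99 in BA cells. The highest control array equalled the second lowest BA array, and the difference was 0.23 ± 0.12 (adjusted p = 0.544, limma), also larger than either SD (0.16 and 0.20).

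Calr and Canx are the lectin chaperones that hold newly glycosylated proteins in the ER. Calr (calreticulin) read 11.64, 11.42, 11.20, 10.78 and 11.01 in control and 10.99, 10.94, 10.99, 10.97 and 10.61 in BA cells. Every control array but replicate 4 was higher than every BA array, and control replicate 4 lay below 4 of them. The difference was -0.31 ± 0.16 (adjusted p = 0.546, limma), while Canx (calnexin) differed by 0.15 ± 0.13.

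Among the J-domain co-chaperones that drive BiP's ATPase cycle, Dnajb11 read 9.56, 9.70, 9.31, 8.76 and 9.55 in control and 8.67, 9.08, 9.23, 9.31 and 9.21 in BA cells. Most control arrays were at or above the top of the BA range, with control replicate 4 near its bottom, and the difference was -0.28 ± 0.19 (adjusted p = 0.597, limma). Dnajb9 differed by -0.07 ± 0.18. Dnajc3, which also inhibits PERK, differed by 0.17 ± 0.20, and its 2 probe sets hold identical values.

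The disulfide isomerases Pdia3, Pdia4 and Pdia6 differed by 0.05 ± 0.13, 0.04 ± 0.30 and 0.23 ± 0.22. A second, dimmer probe set of Pdia4 differed by -0.27, so the sign for that gene depends on the probe set. Serpinh1 (HSP47), the chaperone of procollagen, differed by 0.13 ± 0.12. Hyou1, the nucleotide exchange factor of BiP, differed by 0.09 ± 0.17. The secreted stress-induced proteins Manf and Creld2 differed by -0.11 ± 0.20 and 0.26 ± 0.21.

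**Figure D2:**
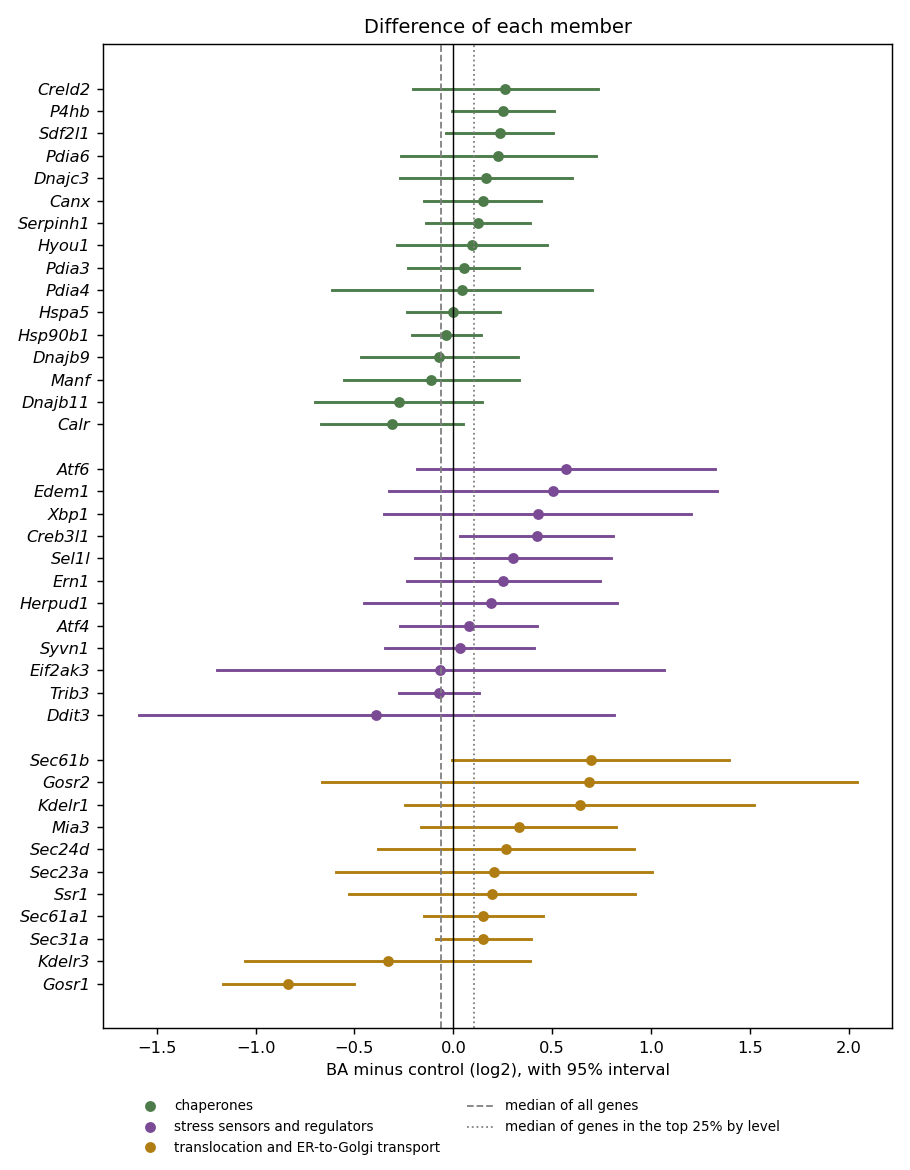
Difference of each of the 39 members, BA minus control on the log2 scale (horizontal axis), as a point with its 95% interval from limma, ordered within role. Dashed and dotted lines mark the median of all genes (-0.06) and of genes in the top 25% by level (0.10). Gosr1 (-0.83) and Creb3l1 (0.42) are the members whose interval leaves 0 out.

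The stress sensors and regulators varied more between mice than the chaperones did. Their median SD was 0.51 among control arrays and 0.37 among BA arrays, against 0.33 and 0.19 for the chaperones and 0.23 and 0.23 for all genes. Of the 12 genes, 9 were higher and 3 lower in BA cells, with a median difference of 0.22 (0.37 without control replicate 4, 0.13 without control replicate 3 and 0.10 with quantile normalization). Over genes in the top 25% by level, where 10 of the 12 lay, 61.7% were higher, with a median of 0.10. 1 of the 12 (Creb3l1, higher) was at an unadjusted p under 0.05 (8.33%, against 9.4% of all genes and 14.4% of the top 25%). None passed over all genes (lowest adjusted p = 0.507, limma).

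Creb3l1 encodes OASIS, an ER-membrane transcription factor that is cleaved under stress and promotes collagen I transcription in osteoblasts. It read 8.40, 7.88, 7.85, 7.95 and 8.12 in control and 8.11, 8.59, 8.67, 8.10 and 8.84 in BA cells. BA replicates 2, 3 and 5 lay above every control array, and BA replicates 1 and 4 lay within the control range. The difference was 0.42 ± 0.17, or 1.34-fold (unadjusted p = 0.0353 and adjusted p = 0.507, limma). The unadjusted p was under 0.05 in 8 of the 19 alternatives. It lay between 0.0679 and 0.0864 without control replicate 2, 3 or 4 and without BA replicate 2, 3 or 5, each left out alone, and was 0.0666 with the replicate block, 0.0683 with trend and robust settings, 0.0528 with the Xist covariate, 0.1145 with the pan-haematopoietic covariate and 0.131 with quantile normalization (limma). The difference stayed above 0 in all 19, from 0.28 to 0.51.

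Of the 3 sensors, Atf6 read 7.58, 8.52, 7.88, 8.0 and 7.0 in control and 7.41, 8.82, 9.0, 8.12 and 8.48 in BA cells. Both its highest values were BA arrays and its lowest was a control array, but BA replicate 1 lay near the bottom. The difference was 0.57 ± 0.34 (adjusted p = 0.570, limma). Ern1, the kinase and nuclease that splices Xbp1 mRNA, differed by 0.25 ± 0.22, and Eif2ak3, the kinase that phosphorylates eIF2alpha, by -0.07 ± 0.51. Eif2ak3 ranged from 5.67 to 7.98 in control and from 5.71 to 7.76 in BA cells, so its 95% interval, -1.20 to 1.06, is among the widest of the stress genes.

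The transcription factors downstream of the sensors were as mixed. Xbp1 differed by 0.43 ± 0.35, with control arrays at 6.31 to 8.11 and BA arrays at 7.11 to 8.38. A probe set level does not separate spliced from unspliced Xbp1 mRNA. Atf4, which is controlled mainly at translation, differed by 0.08 ± 0.16. Its target Ddit3 (CHOP), a transcription factor of terminal stress, ranged from 7.74 to 10.79 in control and from 7.81 to 9.17 in BA cells, and its highest array was control replicate 4. The Ddit3 difference of -0.39 ± 0.54 became 0.09 without that array. Trib3, a pseudokinase induced by ATF4 and CHOP, stayed between 5.93 and 6.27 on every array, with a difference of -0.07 ± 0.09. That level is close to the array medians (5.91 to 6.02), and no detection call was used. GCRMA compresses differences between dim probe sets, so this narrow range does not bound a change in Trib3 RNA.

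Genes of ER-associated degradation remove misfolded protein to the proteasome. Sel1l, the scaffold of the ubiquitin ligase, read 7.66, 7.22, 7.37, 8.42 and 7.83 in control and 8.35, 7.92, 8.21, 7.76 and 7.77 in BA cells. BA arrays clustered at the upper side of the control range but did not exceed it, and the difference was 0.30 ± 0.22 (adjusted p = 0.622, limma). Syvn1, the ligase itself, differed by 0.03 ± 0.17.

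Edem1, a lectin that hands over misfolded glycoproteins, read 6.23, 6.70, 7.27, 6.82 and 7.74 in control and 7.62, 6.35, 8.22, 7.14 and 7.95 in BA cells. Values of either group spread over more than 1 log2 unit, and the difference was 0.50 ± 0.37 (adjusted p = 0.622, limma). Herpud1, a stress-induced membrane protein of the same complex, differed by 0.19 ± 0.29.

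**Figure D3:**
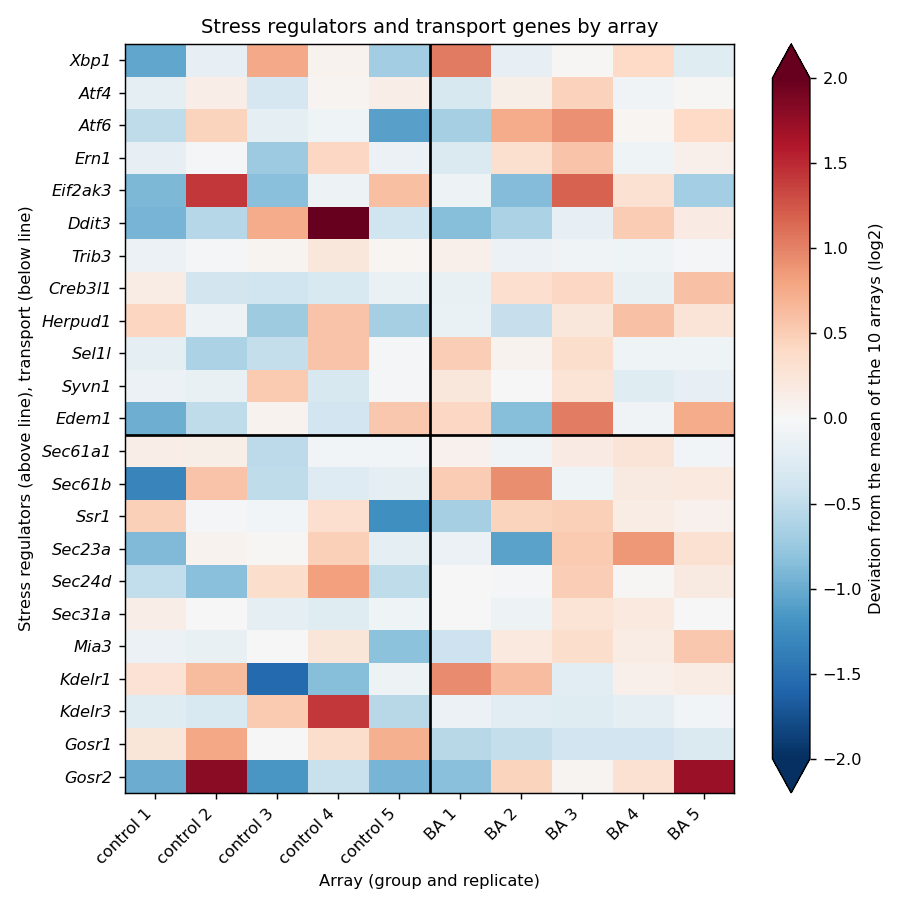
Deviation of each stress regulator (upper block) and transport gene (lower block) from its own mean over the 10 arrays, in log2 units by colour, with 1 column per array. Gosr1 is above its mean or near it on all control arrays and below it on all BA arrays, while Ddit3 and Gosr2 are set by single arrays such as control replicates 4 and 2.

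Averaged over the 12 stress genes, the deviation from each gene's mean was lowest on control replicate 1 (-0.38) and highest on BA replicate 3 (0.44). The other arrays lay between -0.15 and 0.24, with both groups in that span. For the chaperones the same average ran from -0.16 to 0.21 over control arrays, which enclosed the BA arrays at -0.02 to 0.10. For the transport genes control arrays ran from -0.36 to 0.24 and BA arrays from -0.11 to 0.25.

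Translocation and ER-to-Golgi transport held the 1 member of 39 with groups fully apart. That member was Gosr1 (GS28), a Golgi SNARE that fuses ER-derived vesicles with the cis-Golgi. It read 8.28, 8.81, 8.05, 8.39 and 8.75 in control and 7.48, 7.56, 7.66, 7.66 and 7.75 in BA cells. Every BA array lay below every control array, and BA arrays were closer together (SD 0.10) than control arrays (SD 0.32).

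The Gosr1 difference was -0.83 ± 0.15 (SE), a 1.78-fold lower level, with a 95% interval of -1.17 to -0.50. Its unadjusted p was 0.000208, yet over all genes it did not pass (adjusted p = 0.281, limma). Groups were apart for 1.67% of all genes, 1.1% with BA lower and 0.567% with BA higher. The adjusted p lay between 0.228 and 0.644 over the alternatives, all of which gave a lower level in BA cells, and without BA replicate 5 the difference was -0.87. Gosr1 had already been seen to have a small p in these arrays when the members were chosen, so this value is not independent of that choice.

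The 5 genes most like Gosr1 over the 10 arrays, once group means were removed, were Dbpht2, Lrrc42, Usp4, Fancl and Mmadhc, with Pearson's r of 0.959, 0.936, 0.931, 0.926 and 0.926. They are the highest of 19937 ranked genes over 10 arrays, and r is given as a description. Their own differences, BA minus control, were -0.17, -0.31, 0.00, -0.64 and 0.40, so genes that followed Gosr1 within groups did not all share its direction between groups.

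Gosr2 (membrin), the SNARE of the preceding fusion step, did not follow Gosr1. It lay between 6.54 and 7.27 on 4 control arrays and at 9.52 on control replicate 2, and ranged from 6.88 to 9.44 in BA cells. The difference was 0.69 ± 0.61, with a 95% interval of -0.66 to 2.04.

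**Figure D4:**
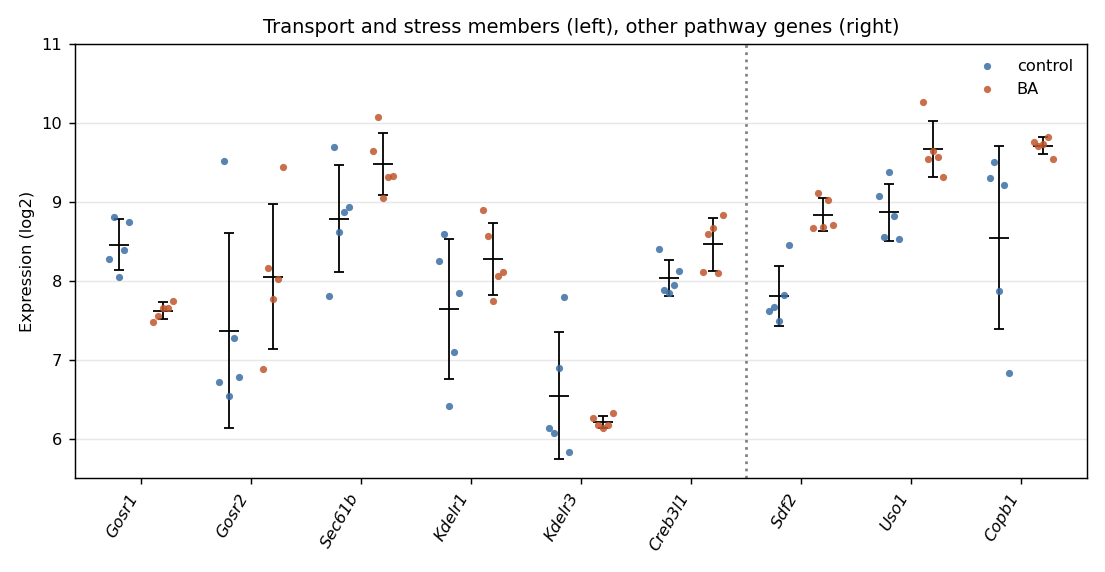
Expression (log2, vertical axis) on each array of 5 transport members and Creb3l1 (left of the dotted line) and of 3 other pathway genes (right), with 5 control (blue) and 5 BA (orange) mice per gene and bars for mean and SD. Gosr1 is lower and Sdf2 and Copb1 are higher on every BA array than on any control array, while Gosr2 and Kdelr1 spread widely in both groups.

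Of the 11 transport members, 9 were higher and 2 lower in BA cells, with a median difference of 0.21 (0.35 without control replicate 4, 0.13 without BA replicate 3 and 0.12 with quantile normalization). Over genes in the top 25% by level, where 10 of the 11 lay, 61.7% were higher, with a median of 0.10. Gosr1 alone was at an unadjusted p under 0.05 (9.09% of the 11, against 9.4% of all genes and 14.4% of the top 25%). Sec61b, a subunit of the channel through which new chains enter the ER, read 7.81, 9.70, 8.62, 8.87 and 8.94 in control and 9.65, 10.07, 9.05, 9.31 and 9.33 in BA cells. All BA arrays exceeded 4 of the 5 control arrays, and control replicate 2 lay above all but 1 BA array. The difference was 0.69 ± 0.32 (adjusted p = 0.533, limma), and the 2 other probe sets annotated to Sec61b gave 0.60 and 0.58. The channel's main subunit, Sec61a1, and the translocon-associated Ssr1 differed by 0.15 ± 0.14 and 0.20 ± 0.33.

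The KDEL receptors bind the retrieval tail of ER-resident proteins in the Golgi. Kdelr1 read 8.25, 8.59, 6.41, 7.10 and 7.85 in control and 8.90, 8.57, 7.75, 8.06 and 8.11 in BA cells. The BA arrays covered the top of the control range, and control replicates 3 and 4 lay below all of them, giving a difference of 0.64 ± 0.40 (adjusted p = 0.584, limma). Kdelr3 differed by -0.33 ± 0.33, with BA arrays between 6.13 and 6.32 and control arrays between 5.83 and 7.79. Only control replicates 3 and 4 (6.90 and 7.79) lay above the BA arrays, and the other control arrays lay at or below their low end. Leaving out 1 array gave -0.51 to -0.021. The BA level is close to the array medians (5.91 to 6.02), and GCRMA compresses differences between dim probe sets. The receptors thus had opposite signs, each within its spread.

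COPII coats bud cargo from the ER, and Mia3 (TANGO1) loads procollagen into them. Mia3 read 8.08, 8.05, 8.21, 8.44 and 7.37 in control and 7.78, 8.39, 8.54, 8.35 and 8.74 in BA cells. The ranges overlapped over most of their length, and the difference was 0.33 ± 0.22 (adjusted p = 0.594, limma). The inner coat genes Sec23a and Sec24d, whose loss impairs collagen export, differed by 0.21 ± 0.36 and 0.27 ± 0.29, and the outer coat gene Sec31a by 0.15 ± 0.11.

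Taken over all 39 members, 28 were higher and 10 lower in BA cells (71.8% higher), with a median of 0.15. Over all genes 37.7% were higher, and over genes in the top 25% by level 61.7% were. At an unadjusted p under 0.05 there were 2 members, 1 in each direction, while 9.4% of all genes had such a p. The number higher was 7 without control replicate 2, 4 without BA replicate 1, 2 with control replicate 5 or with BA replicate 3 left out, and 0 once either BA replicate 5 or control replicate 3 was dropped. It was 4 with each array centred on its median and 0 with quantile normalization, and the number lower was 3 without control replicate 4. In none of these did a member pass over all genes. The median of the 39 stood beside 0.10 over the genes in the top 25% by level. In 29 of the 39 members the control arrays had the larger SD, against 51.5% of all genes and 62.2% of genes in the top 25%.

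Further genes of the same route were read from fixed lists, with 151 distinct genes measured. Of these, 108 were higher and 43 lower, with a median of 0.20, or 71.5% higher against 37.7% of all genes and 61.7% of genes in the top 25% by level. At an unadjusted p under 0.05 there were 18 higher (11.9%) and 6 lower (3.97%), against 4.13% and 5.27% of all genes and 10.4% and 3.99% of the top 25%. Either way, that is 15.9% of the lists against 9.4% of all genes and 14.4% of the top 25%, so the share called lay near that of well-expressed genes. Groups were apart for 3 genes higher and 3 lower, against 0.567% and 1.1% of all genes. None passed over all genes (lowest adjusted p = 0.281, limma), so the genes below are given as values only. The lists were drawn up with earlier results of these data known.

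Among 24 other folding enzymes, 13 were higher (54.2%, below the 61.7% of the top 25%), and 3, all higher, were at an unadjusted p under 0.05 (12.5%, against 4.13% of all genes and 10.4% of the top 25%). Sdf2, the constitutive relative of Sdf2l1, read 7.62, 7.67, 7.49, 7.82 and 8.46 in control and 8.67, 9.11, 8.68, 9.03 and 8.71 in BA cells. Its groups were fully apart, by a narrow gap above control replicate 5, and the difference was 1.03 ± 0.19, or 2.04-fold (adjusted p = 0.281, limma). Sil1, a nucleotide exchange factor of BiP, differed by 0.59 ± 0.18, and Uggt1, the glucosyltransferase that senses misfolded glycoproteins, by 0.28 ± 0.12.

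Among 21 other genes of stress signalling and its targets, 3 higher and 1 lower were at an unadjusted p under 0.05 (19.0%, against 9.4% of all genes and 14.4% of the top 25%). Eif2ak4 (GCN2), the kinase that senses amino acid shortage, differed by 0.47 ± 0.16. Vldlr, a lipoprotein receptor, differed by 0.76 ± 0.27 and Ddit4 (REDD1), an inhibitor of mTORC1, by -0.22 ± 0.09 with groups apart, as for 1.67% of all genes. Among 16 other degradation genes, 2 higher and 1 lower had such a p (18.8%). The ubiquitin ligase gene Rnf5 differed by 0.87 ± 0.25, Nploc4, a cofactor of the extraction ATPase p97, by 0.40 ± 0.16, and the conjugating enzyme gene Ube2j2 by -0.62 ± 0.23 with groups apart.

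None of 26 other genes of translocation, signal cleavage and glycan transfer was at an unadjusted p under 0.05, against 9.4% of all genes. Of the 26, 21 were higher (80.8%, median 0.25, against 61.7% of the top 25%). Ssr4, of the translocon-associated complex, differed by 0.73 ± 0.33, Rpn2, of the oligosaccharyltransferase, by 0.36 ± 0.18, and Sec11c, of the signal peptidase, by 1.19 ± 0.61.

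Most vesicle genes were also higher, where 61.7% of the top 25% were. Of 20 other COPII and cargo genes 17 were higher (median 0.23). At an unadjusted p under 0.05 were 2 higher and 1 lower (15.0%, against 9.4% of all genes and 14.4% of the top 25%). The cargo receptor subunit Mcfd2 differed by 0.24 ± 0.10 with groups apart, the exit-site scaffold Sec16a by 0.43 ± 0.19, and the p24 protein gene Tmed7 by -0.54 ± 0.18. Of 19 other SNAREs and tethers 15 were higher (78.9%, median 0.30), and 5, all higher, were at an unadjusted p under 0.05 (26.3%, against 4.13% of all genes and 10.4% of the top 25%). The tether Uso1 (p115), which acts with Gosr1's SNARE complex, differed by 0.80 ± 0.21, the SNARE-recycling ATPase gene Nsf by 0.57 ± 0.23 and the SNARE gene Vti1a by 0.51 ± 0.21. These 19 genes act at several steps of ER and Golgi traffic, and the lowest difference among them was -0.26, against -0.83 for Gosr1.

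Of the 12 COPI genes, whose coat carries retrieved proteins back to the ER, 10 were higher (83.3%, median 0.21) and 1, Copb1, was at an unadjusted p under 0.05. Copb1 read 9.30, 9.51, 7.87, 9.22 and 6.83 in control and 9.76, 9.71, 9.73, 9.82 and 9.54 in BA cells. The groups were apart by a gap of a few hundredths, where 0.567% of all genes were apart with BA higher. The difference of 1.17 ± 0.46 (adjusted p = 0.507, limma) came mostly from control replicates 3 and 5. Copz1 and Arcn1 differed by 0.77 ± 0.36 and 0.36 ± 0.20.

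**Figure D5:**
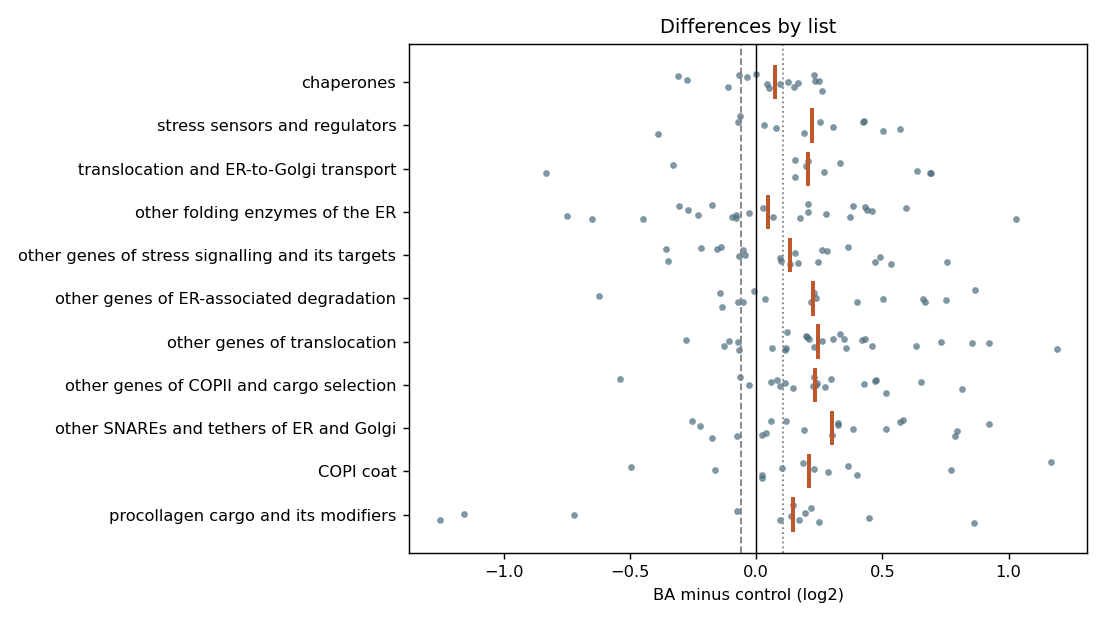
Difference of each gene, BA minus control on the log2 scale (horizontal axis), for the 3 roles of members and 8 further lists of the secretory route; each point is 1 gene and the orange bar is the list's median. Dashed and dotted lines mark the medians of all genes and of genes in the top 25% by level. List medians lie between 0.05 and 0.30.

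Procollagens are the main cargo of this route in skeletal cells, and their list had the lowest single differences among the lists of members and of the secretory route, though not as low as those of the stromal progenitor markers. Col1a2 read 10.49, 10.65, 10.78, 10.54 and 10.69 in control and 10.19, 9.12, 9.27, 10.28 and 8.5 in BA cells, with groups apart and a difference of -1.16 ± 0.31 (adjusted p = 0.388, limma). Col1a1 differed by -1.25 ± 0.34 (adjusted p = 0.399, limma). The collagen-modifying enzyme gene P4ha2 differed by 0.86 ± 0.36, and over the 13 genes 9 were higher, with a median of 0.15, and 2 higher and 3 lower were at an unadjusted p under 0.05 (38.5%, against 9.4% of all genes). BA replicate 5 had the lowest Col1a2, the highest pan-haematopoietic and neutrophil markers and the lowest stromal progenitor markers, and their part in the collagen values was not tested. In the same arrays the procollagen chaperone Serpinh1 differed by 0.13 with a 95% interval of -0.14 to 0.39, and fewer collagen-making cells cannot be told apart from less collagen RNA per cell in bulk samples.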

How the data were processed

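The authors deposited 1 value per probe set and array on a log2 scale, for 35557 probe sets on 10 arrays. The submitters' processing notes name GCRMA (background correction by probe sequence, normalization and summary); for its version and for the genome build, none is given in the sources used here. The log2 base was inferred from the range, 1.21 to 13.7, and the named method. GCRMA compresses differences between dim probe sets, and no detection calls were used. Of the probe sets, 21789 had 1 gene symbol in the platform annotation, which gave 19938 genes.

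The test of BA against control was limma (version 3.58.1, under R 4.3.3), with lmFit, eBayes and no covariate (two-sided, Benjamini-Hochberg over all genes, threshold 0.05); the script was tested on simulated data. Differences are BA minus control. Each array is a separate mouse per the labels, and 5 arrays per group limit the precision. Members and lists were chosen with earlier results of these data known. Named genes: all members, those with the 4 smallest p per role with every array's value, and the 3 smallest p of each other list. Alternatives were a replicate block, quantile normalization, median centring, a level filter, eBayes with trend, array weights, the mean of probe sets, haematopoietic and Xist covariates, and leaving out each array.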

Additional observations from a re-analysis of the deposited data

Results flagged for a closer look

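In 8 of 126 groups of 5 arrays checked, 1 array stood apart from the other 4 by more than Dixon's 95% limit, where chance gives about 1 in 20 groups. BA replicate 1 did so 3 times: for Hsp90b1 at 12.26 (others 12.13 to 12.15), P4hb at 10.38 (others 10.75 to 10.81) and Dnajc3 at 10.09 (others 10.66 to 10.74). Calr stood at 10.61 on BA replicate 5 (others 10.94 to 10.99). Control replicate 2 was high for Canx at 11.56 (others 10.93 to 11.09) and for Gosr2 at 9.52 (others 6.54 to 7.27). Ddit4 stood at 7.52 on control replicate 1 (others 7.21 to 7.29), and the signal peptidase gene Sec11c at 5.54 on control replicate 3 (others 8.21 to 8.95).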

How the results depend on the processing

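No member passed over all genes under any of the 19 alternatives, and of 740 values for single members 30, in 10 members, changed sign. Trib3 had no value under the level filter. In the main comparison the members that changed sign differed by at most 0.39 in size, the largest being Ddit3 (-0.39, or 1.31-fold). With quantile normalization Pdia3 was -0.008, Pdia4 -0.109, Atf4 -0.029 and Syvn1 -0.105. With the pan-haematopoietic covariate Pdia3 was -0.011, Pdia4 -0.039 and Dnajb9 0.041. Array weights gave -0.075 for Pdia4 and 0.06 for Eif2ak3, the mean of probe sets -0.114 for Pdia4, and the Xist covariate 0.022 for Eif2ak3. Leaving out 1 array, the differences that crossed 0 lay between -0.021 and 0.134 for Pdia3, -0.165 and 0.24 for Pdia4, -0.2 and 0.025 for Dnajb9, -0.039 and 0.178 for Hyou1, -0.203 and 0.017 for Manf, -0.026 and 0.169 for Atf4, -0.371 and 0.278 for Eif2ak3, -0.669 and 0.093 for Ddit3, -0.044 and 0.169 for Syvn1 and -0.085 and 0.388 for Ssr1. The role medians stayed above 0 under all 19 alternatives, though several moved them by over 1.5 times, as given beside each median.

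Members higher at an unadjusted p under 0.05 numbered 1, against 2 with the replicate block, array weights or the mean of probe sets, 4 with median centring, and 0 with quantile normalization, trend and robust settings or either covariate. Leaving out 1 array gave 0 to 7. Members lower numbered 1, against 2 with quantile normalization and 1 to 3 leaving out 1 array. Genes past the threshold and higher numbered 0 with the replicate block, the level filter or the pan-haematopoietic covariate and 2 with the Xist covariate. For these genes, leaving out 1 array gave 0 to 12 higher and 0 to 1 lower, with the 12 and the 1 lower both without BA replicate 4. The cause of these shifts was not tested. Deviations of same-numbered arrays were only weakly correlated (r from -0.10 to 0.11). The best-matching BA array had the same number for control replicates 1 and 4, and another number for control replicates 2, 3 and 5. With so few arrays, these values cannot decide whether the replicate numbers pair the mice.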
